A study of Mus musculus with 12 samples.

Results

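The genes described here are 8 members of the complement system: C1qa, C1qb, C1qc, C3, C4b, Serping1, C3ar1 and C5ar1. They were chosen by name, with earlier results of these data known. All 8 were found by symbol among the 55401 genes of the count table, and all 8 were among the 18289 genes with enough counts to be tested. They were measured by poly(A) RNA sequencing of prefrontal cortex from male C57BL/6J mice in 12 libraries, 4 in each of 3 groups. The mice were 14 weeks old, and 4 weeks had passed since virus was injected on both sides into the dorsomedial prefrontal cortex. The control group received pAAV.1-CAG-GFP, which carries green fluorescent protein (GFP). The overexpression group received pAAV-CAG-GFP-P2A-Ttr-WPRE.bgH, a construct for GFP and, after a P2A peptide, the transthyretin gene Ttr. The knockdown group received pAAV-U6-Ttr-shRNA-2, in which the U6 promoter drives a hairpin directed at Ttr and a CAG-GFP-WPRE3 cassette makes GFP. All groups therefore had surgery, an adeno-associated virus and GFP. CAG is a broadly active promoter, so expression was not limited by it to 1 cell type. Per the labels' protocols the control vector came from a repository and both Ttr vectors from a vector core, so the source of the vector and the group cannot be told apart. Nothing in the labels ties each sample to a separate mouse, so p-values reflect the spread between the samples, some of which may be technical.

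Complement is a protein cascade of innate immunity. C1q, a recognition protein built from the A, B and C chains encoded by C1qa, C1qb and C1qc, starts the classical pathway, in which C4 and C2 and then C3 are cleaved. Fragments of C3 tag surfaces for uptake, and the small fragments C3a and C5a act on the receptors encoded by C3ar1 and C5ar1, while Serping1 encodes the C1 inhibitor, which blocks the proteases of the first component. In brain, microglia are the main source of C1q, and C1q and C3 are known for their part in the removal of synapses.

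Library totals ran from 19879629 to 37166146 counts. Ttr had 14 to 200 counts in the controls, 2121 to 20940 in the overexpression group and 3 to 47 in the knockdown group. Overexpression against control gave a log2 difference of 7.01 ± 0.81 (SE) for Ttr (edgeR's quasi-likelihood test, Benjamini-Hochberg adjusted p = 0.0168), and knockdown against control gave -1.41 ± 1.16 (adjusted p = 0.936 in the same test). The Ttr counts thus separated the overexpression group, and did not separate the knockdown group from the controls beyond the spread. Libraries stood apart within both Ttr groups. Overexpression replicate 4 had the highest sum of 7 genes of class II antigen presentation, 559 CPM (counts scaled to a common library size with the factors of edgeR), against 21.0 to 28.3 CPM in the controls. Knockdown replicate 4 had the highest sum of 20 interferon-stimulated genes, 1567 CPM, against 59.6 to 106 CPM in the controls. Knockdown replicates 1 to 3, at 192, 365 and 148 CPM, also lay above every control, and the overexpression group had 70.7 to 427 CPM. At an unadjusted p under 0.05 in edgeR's test, 18 of the 20 were higher in knockdown against control, where 3.85% of all genes were. In overexpression against control 5 were, where 4.58% of all genes were. Knockdown replicate 4 also had the highest share of mitochondrial counts, 7.17% against 4.59 to 5.94% in the other 11 libraries, while overexpression replicate 4 had 5.28%. These libraries are called both Ttr replicates 4 from here on, and values without them are given beside the results they change. Neuronal markers were present in every library, all 8 being tested and summing to 7176 to 9244 CPM, while 8 markers of striatal neurons ran from 174 to 1160 CPM.

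C1qa, C1qb and C1qc were the most abundant of the 8 genes, and their mean levels were higher in both Ttr groups than in the controls, without passing the test. C1qa had 48.5, 57.1, 46.9 and 50.1 CPM in control replicates 1 to 4. In the overexpression group it had 61.4, 42.4, 61.9 and 136 CPM, and in the knockdown group 63.5, 63.2, 52.7 and 101 CPM. The 4 controls lay close together, overexpression replicate 2 lay below them, and replicate 4 of each Ttr group lay far above the other libraries. C1qb followed the same order at the extremes, with 47.5 to 57.0 CPM in the controls, 44.8 to 122 CPM in the overexpression group and 53.1 to 87.4 CPM in the knockdown group. C1qc had 40.3 to 45.3 CPM in the controls, 36.1 to 102 CPM in the overexpression group and 45.1 to 75.8 CPM in the knockdown group. For all 3 chains the range of each Ttr group overlapped that of the controls.

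The overexpression mean of C1qa was 75.5 ± 41.6 CPM (SD, n = 4) against 50.6 ± 4.49 CPM in the controls. The fitted log2 difference was 0.57 ± 0.29 (SE; adjusted p = 0.831 by edgeR's quasi-likelihood test with Benjamini-Hochberg adjustment), and without overexpression replicate 4 it was 0.11. For C1qb and C1qc the log2 differences were 0.48 ± 0.25 and 0.50 ± 0.25, and without that library they were 0.097 and 0.11. Knockdown against control gave log2 differences of 0.47 ± 0.29 for C1qa, 0.33 ± 0.25 for C1qb and 0.40 ± 0.25 for C1qc (adjusted p = 0.910, 0.933 and 0.911 in the same edgeR fit). Without knockdown replicate 4, the library with the highest mitochondrial share (7.17%), these were 0.24, 0.16 and 0.22, and the part of that share in them was not tested. The overexpression differences of C1q thus rested in large part on 1 library, and the knockdown differences in part. Leaving out overexpression replicate 2, the lowest library, raised the overexpression differences to 0.77 for C1qa, 0.65 for C1qb and 0.68 for C1qc. Leaving out knockdown replicate 3 raised the knockdown differences to 0.58, 0.42 and 0.48.

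The 3 chains kept nearly constant proportions. Per length, in TPM (the authors' values, counts divided by gene length and scaled to a common total), C1qa made up 36.0 to 40.5% of the summed C1q level over the 12 libraries, C1qb 33.3 to 37.7% and C1qc 25.7 to 27.4%. The levels of C1qa in the controls were 121 ± 8.87 TPM (SD, n = 4) and those of C1qb 118 ± 7.98 TPM, with overlapping ranges. C1qc was lower at 87.2 ± 3.36 TPM, and its range of 84.6 to 91.7 TPM lay below those of the other chains. The 3 genes are neighbours on the minus strand of chromosome 4 (GRCm38). C1qb (ENSMUSG00000036905) lies at chr4:136880129-136886187, C1qc (ENSMUSG00000036896) at chr4:136889804-136893065 and C1qa (ENSMUSG00000036887) at chr4:136895917-136898803. The gaps between them are 3616 and 2851 bases, and the whole cluster spans 18675 bases.

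Promoter sequences from RefSeq (GRCm38.p6) were at hand for 5 of the 8 genes, as the 250 bases before the annotated start, and those of C1qb and C1qc are shown because their transcripts kept such constant proportions. Both are on the minus strand and written 5′ to 3′, with capitals marking matches to AGGAAG or its reverse complement CTTCCT, the core bound by ETS-family factors such as PU.1, a lineage factor of microglia. The C1qb sequence is chr4:136886201-136886450. For C1qc only the 99 bases that lie outside the GENCODE gene are shown, chr4:136893066-136893164.
C1qb: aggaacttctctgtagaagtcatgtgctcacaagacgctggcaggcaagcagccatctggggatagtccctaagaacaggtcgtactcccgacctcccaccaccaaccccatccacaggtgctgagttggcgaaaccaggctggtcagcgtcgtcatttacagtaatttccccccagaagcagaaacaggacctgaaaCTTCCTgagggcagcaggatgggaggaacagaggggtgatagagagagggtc
C1qc: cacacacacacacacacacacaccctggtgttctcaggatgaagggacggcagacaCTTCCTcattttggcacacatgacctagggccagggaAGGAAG
C1qb held 1 match, 52 bases before its start, and C1qc held 2, at 194 and 157 bases. C5ar1 held 3 matches, 2 of them overlapping at 71 and 67 bases and 1 at 189 bases, and C3 and C3ar1 held none. Only 48 bases of the C5ar1 window lie outside the GENCODE gene, and all 3 matches lie inside that gene. AGGAAG on either strand was present in 29.5% of the 32851 RefSeq promoters of the same length, so a match is common and is given as a description only. The 5 motifs searched on both strands were chosen after the promoters had been seen. An interferon response element, searched as GAAA, any 2 bases and GAAA again (in 2.98% of promoters), and TTCNNNGAA, a gamma-activated element (in 7.02%), were in none of these 5 windows.

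**Figure D1:**
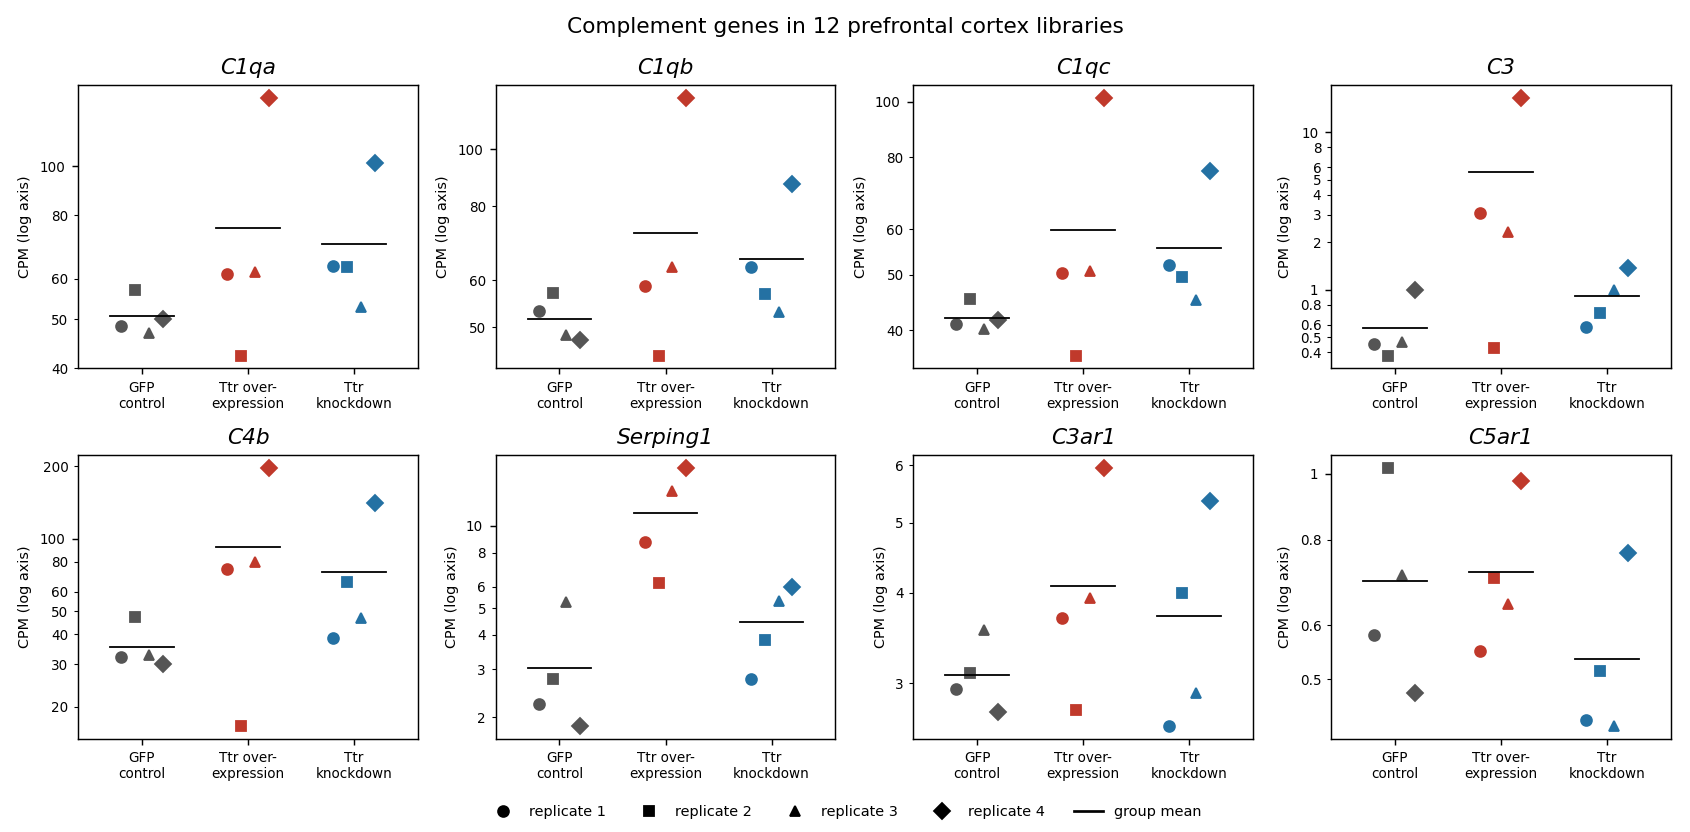
CPM of the 8 complement genes on log axes in each of the 12 libraries, by group, with 1 marker shape per replicate number and a line at the group mean. Overexpression replicate 4 is the highest library for 7 genes, C5ar1 being the exception, and Serping1 is the only gene whose overexpression libraries all lie above the controls.

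The microglial markers moved with C1q. The summed level of 12 homeostatic microglia markers, all 12 of them tested and none at 0 in any group, was 452 to 533 CPM in the controls, 434 to 718 CPM in the overexpression group and 520 to 714 CPM in the knockdown group. The lowest value, 434 CPM, was that of overexpression replicate 2, and the highest, 718 and 714 CPM, were those of both Ttr replicates 4, the same order at the extremes as for C1q. Over the 12 libraries log2 CPM of C1qa correlated with log2 of that sum at Pearson r = 0.937 and Spearman rho = 0.909 (permutation p adjusted over 32 relations of the 8 genes with 4 marker lists, 0.000107 and 0.000960), at r = 0.844 without both Ttr replicates 4, and at r = 0.931 with values centred on group means. Summed C1q reached 26.9 to 30.8 CPM per 100 CPM of the microglia markers in the controls. It was 50.2 in overexpression replicate 4 and 37.1 in knockdown replicate 4, so in these libraries C1q was high also relative to the markers. At an unadjusted p under 0.05, 4 of the 12 markers were higher in knockdown against control, where 3.85% of all genes were, and 0 in overexpression against control, where 4.58% were. Of 15 markers of activated microglia, all tested, 5 were higher by that rule in overexpression (median log2 difference 0.35) and 1 in knockdown (0.20), and their sum was 1965 to 2210 CPM in the controls, 1958 to 2546 CPM in the overexpression group and 2041 to 2377 CPM in the knockdown group. C1qa also went with the interferon-stimulated genes (r = 0.795, rho = 0.832; permutation p adjusted over 32 relations, 0.0124 and 0.00556; r = 0.704 without both Ttr replicates 4). With the microglia sum as a covariate, the overexpression difference was 0.12 for each of C1qa, C1qb and C1qc, and the knockdown differences were -0.013, -0.057 and -0.0033 on the log2 scale. In bulk tissue, more cells of a type and more RNA per cell cannot be told apart, and the part of microglia in these differences was not tested beyond these values.

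C4b, the gene of the classical pathway component C4, had the second widest spread of the 8 genes, 11.8-fold between its lowest and highest library. It had 32.2, 47.0, 32.8 and 30.0 CPM in the controls, 74.9, 16.7, 80.3 and 197 CPM in the overexpression group and 38.6, 66.2, 46.8 and 140 CPM in the knockdown group. In the overexpression group 3 libraries lay above all controls, while replicate 2 was the lowest of all 12. Overexpression gave 92.1 ± 75.4 CPM (SD, n = 4) against 35.5 ± 7.76 CPM, a log2 difference of 1.37 ± 0.56 (SE; unadjusted p = 0.0293, adjusted p = 0.776 by edgeR's quasi-likelihood test with Benjamini-Hochberg adjustment). Knockdown gave 72.9 ± 46.2 CPM and a log2 difference of 1.03 ± 0.56 (adjusted p = 0.897 in the same edgeR fit). Without the library numbered 4 of the group compared these were 0.68 and 0.51. With the microglia marker sum as a covariate they were 0.28 and -0.036.

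Of the 8 genes, C4b followed the microglia markers most closely over the 12 libraries (r = 0.958, rho = 0.965; permutation p adjusted over 32 relations, 0.000107 and 0.000320; r = 0.908 without both Ttr replicates 4). C4b (ENSMUSG00000073418, chr17:34728380-34743882, minus strand, GRCm38) has a close copy, C4a, 65209 bases away, and reads may be split between them, so the level of each is uncertain. C4b had 12.2 to 18.1 counts per C4a count in the controls, 10.5 to 19.3 in the overexpression group and 15.2 to 18.5 in the knockdown group. C4a itself was 2.65, 2.59, 2.24 and 1.87 CPM in the controls and 3.94, 1.59, 4.30 and 10.2 CPM in the overexpression group, with the lowest and the highest of all libraries there, as for C4b. In the knockdown group it was 2.09, 3.87, 3.08 and 8.01 CPM. The cell type behind the C4b level cannot be read from its correlation with the microglia markers. Astrocytes are a cell type known to express C4. The reactive astrocyte list had 13 of 14 members tested and summed to 219 to 296 CPM in the controls. It summed to 199 to 449 CPM in the overexpression group and to 181 to 231 CPM in the knockdown group. No correlation of C4b with this list was computed, and its part in the C4b values was not tested.

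C3, the central component on which all pathways converge, was the most variable member, 43.2-fold between its lowest and highest library. It had 11, 9, 17 and 23 counts in the controls (0.456, 0.382, 0.464 and 0.998 CPM). In the overexpression group it had 100, 14, 65 and 372 counts (3.05, 0.428, 2.33 and 16.5 CPM), and in the knockdown group 12, 18, 35 and 27 counts (0.582, 0.711, 0.998 and 1.38 CPM). In the overexpression group 3 libraries exceeded every control and knockdown library, and replicate 2 lay among the controls. The log2 difference of overexpression from control was 3.26 ± 0.85 (SE; unadjusted p = 0.00207, adjusted p = 0.567 by edgeR's quasi-likelihood test with Benjamini-Hochberg adjustment), from means of 5.58 ± 7.37 and 0.575 ± 0.284 CPM (SD, n = 4). Without overexpression replicate 4 it was 1.75, with the microglia sum as a covariate 1.62, and over all alternatives it ran from 0.72 (on the compressed scale of the variance-stabilised values) to 3.66, with adjusted p-values of 0.0584 to 1.00. Knockdown gave 0.69 ± 0.96 against control (adjusted p = 0.970 in the same edgeR fit), a difference smaller than its standard error.

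The library with the highest C3 was also the one with the highest class II sum. Over 12 libraries C3 and that sum of 7 genes, all tested and none at 0, gave r = 0.929 and rho = 0.622 (permutation p adjusted over 32 relations, 0.00196 and 0.0712). Without overexpression replicates 4 and 1, the libraries farthest from the median, r was 0.624, so the relation rested in part on them. The class II sum was 31.7 to 559 CPM in the overexpression group and 23.3 to 35.4 CPM in the knockdown group. C3 (ENSMUSG00000024164) lies at chr17:57203970-57228136 on the minus strand (GRCm38), with the microRNA gene Mir6978 in an intron and no exonic base shared. Its RefSeq promoter, chr17:57228137-57228386 on the minus strand, is shown because C3 varied most. Capitals mark its match to TTGCNNAA, a motif of C/EBP factors, which are known inducers of acute-phase genes.
C3: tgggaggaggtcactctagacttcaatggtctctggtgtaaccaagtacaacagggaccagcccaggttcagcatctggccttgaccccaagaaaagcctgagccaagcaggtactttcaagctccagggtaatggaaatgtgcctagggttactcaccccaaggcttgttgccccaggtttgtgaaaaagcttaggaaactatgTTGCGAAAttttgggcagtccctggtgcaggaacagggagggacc
The match lies 45 bases before the start, and 9.56% of RefSeq promoters of this length hold TTGCNNAA on either strand. Of the 5 members with a promoter sequence, C3 alone held it. TATAAA, present in 12.4% of promoters, was in C3ar1 alone, 235 bases before its start.

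Serping1 was the only member whose overexpression libraries all exceeded all controls. It had 2.24, 2.76, 5.27 and 1.87 CPM in the controls, 8.76, 6.21, 13.5 and 16.3 CPM in the overexpression group and 2.77, 3.83, 5.33 and 5.97 CPM in the knockdown group. The overexpression libraries also lay above all knockdown libraries, while knockdown and control overlapped. Such a gap upward between overexpression and control was found for 1.88% of the genes tested, and upward between overexpression and knockdown for 1.23%. Overexpression gave 11.2 ± 4.55 CPM (SD, n = 4) against 3.03 ± 1.54 CPM, a log2 difference of 1.84 ± 0.36 (SE; unadjusted p = 0.000194, adjusted p = 0.297 by edgeR's quasi-likelihood test with Benjamini-Hochberg adjustment). Against knockdown it was 1.31 ± 0.35 (adjusted p = 0.855 in the same edgeR fit), and knockdown against control was 0.53 ± 0.37 (adjusted p = 0.912), or 0.97 without control replicate 3, the highest control. The overexpression difference did not pass over all genes in that fit. It passed with DESeq2 (1.86, adjusted p = 0.000454) and with edgeR without a filter on low counts (1.84, adjusted p = 0.0291), and its adjusted p ran up to 1.00 over the alternatives. Leaving out any 1 of the 12 libraries gave log2 differences of 1.59 to 2.28.

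Serping1 and the microglia markers gave r = 0.529 and rho = 0.497 (adjusted permutation p = 0.116 and 0.174). That r was 0.305 without both Ttr replicates 4 and 0.667 with values centred on group means. Serping1 followed the summed level of 13 meningeal fibroblast markers (r = 0.940, rho = 0.930; permutation p adjusted over 32 relations, 0.000107 and 0.000320). Without control replicate 4 and overexpression replicate 3, the libraries farthest from the median, r was 0.915, and it was 0.833 with all values centred on their group means. All 13 of these markers were tested, none was at 0 in any group, and their sum was 46.6 to 122 CPM in the controls, 134 to 226 CPM in the overexpression group and 65.1 to 121 CPM in the knockdown group. The marker sum thus separated the overexpression group from the others in the same way as Serping1 did. All 13 markers were higher in overexpression against control at an unadjusted p under 0.05, where 4.58% of all genes were. By that rule 6 of 7 class II genes and 6 of 13 reactive astrocyte markers were higher too. So were 4 of 8 border macrophage, 5 of 10 endothelium, 4 of 10 mural and 4 of 8 lymphocyte markers. Of activated microglia markers 5 of 15 were higher, against 0 of 12 homeostatic microglia, 0 of 10 astrocyte and 0 of 8 neuron markers. The 10 mural cell markers summed to 185 to 250 CPM in the overexpression group against 161 to 185 CPM in the controls. With the meningeal and mural sum as a covariate, the Serping1 difference from control was 0.70 and that from knockdown 0.36. Since that sum differs between the groups, its part and that of the vector cannot be told apart. Serping1 also went with the class II sum of 7 genes (r = 0.789, rho = 0.902; permutation p adjusted over 32 relations, 0.00133 and 0.00109; r = 0.914 without overexpression replicates 4 and 1). Serping1 (ENSMUSG00000023224) lies at chr2:84765387-84775444 on the minus strand (GRCm38).

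**Figure D2:**
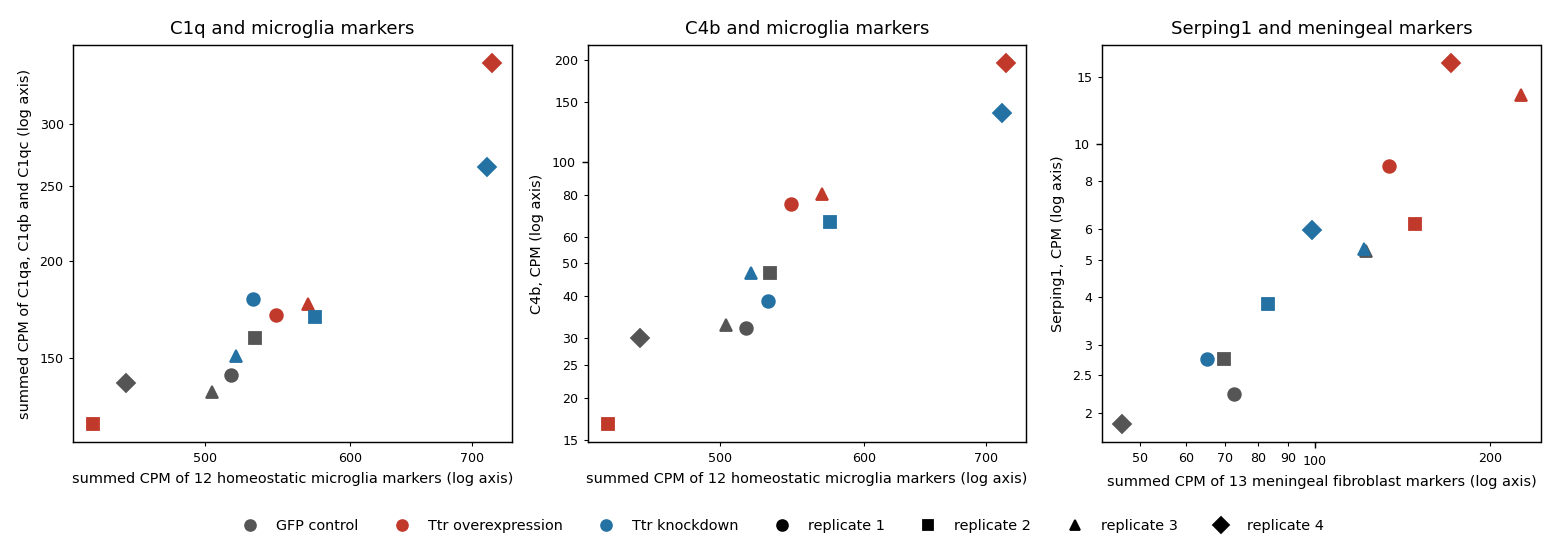
Summed CPM of C1qa, C1qb and C1qc (left) and CPM of C4b (middle) against the summed CPM of 12 homeostatic microglia markers, and CPM of Serping1 against the summed CPM of 13 meningeal fibroblast markers (right), each point being 1 of 12 libraries on log axes. C1q and C4b are highest in both Ttr replicates 4, which also have the highest microglia sums (718 and 714 CPM), whereas the overexpression libraries lead on both axes for Serping1.

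The receptor genes C3ar1 and C5ar1 showed no group difference beyond the spread between libraries. C3ar1 had 2.94, 3.10, 3.55 and 2.73 CPM in the controls, 3.69, 2.75, 3.94 and 5.95 CPM in the overexpression group and 2.62, 3.99, 2.91 and 5.36 CPM in the knockdown group. Its highest values were those of both Ttr replicates 4, and all groups overlapped. The log2 difference was 0.39 ± 0.25 (SE) for overexpression and 0.26 ± 0.25 for knockdown (adjusted p = 0.849 and 0.950 by edgeR's quasi-likelihood test with Benjamini-Hochberg adjustment). Without the library numbered 4 of the group compared these were 0.15 and 0.038. C3ar1 followed the microglia sum at r = 0.906 and rho = 0.832 (permutation p adjusted over 32 relations, 0.000800 and 0.00556; r = 0.687 without both Ttr replicates 4).

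C5ar1 was the 1 member for which overexpression replicate 4 was not the highest library, since control replicate 2 had 1.02 CPM. It had 0.580, 1.02, 0.710 and 0.477 CPM in the controls, 0.549, 0.703, 0.645 and 0.977 CPM in the overexpression group and 0.437, 0.514, 0.428 and 0.765 CPM in the knockdown group. These values rest on 9 to 26 counts per library, so small differences were not detectable at this depth. The log2 difference was 0.02 for overexpression (95% confidence interval -0.58 to 0.62) and -0.40 for knockdown (-1.04 to 0.23). Both intervals hold 0. C3ar1 (ENSMUSG00000040552) lies at chr6:122847138-122856161 and C5ar1 (ENSMUSG00000049130) at chr7:16246743-16259540, both on the minus strand (GRCm38).

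Per length, the order of the 8 genes in the controls was C1qa and C1qb, then C1qc, C4b, Serping1, C3ar1, C5ar1 and C3. C4b was at 16.5 ± 3.31 TPM (SD, n = 4), Serping1 at 4.30 ± 2.22 TPM and C3ar1 at 1.78 ± 0.210 TPM, each with a range apart from its neighbours. C5ar1 at 0.681 ± 0.219 TPM and C3 at 0.282 ± 0.143 TPM had overlapping ranges. In the overexpression group the order was the same except for C3, which at 2.86 ± 3.79 TPM stood before C3ar1 at 2.45 ± 0.840 TPM, with a spread larger than its mean. In the knockdown group the order was that of the controls, from 168 ± 43.9 TPM for C1qa to 0.523 ± 0.133 TPM for C5ar1 and 0.446 ± 0.159 TPM for C3.

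Taking the 8 genes as a set, all 8 log2 differences of overexpression from control were above 0, as were 51.4% of those of all genes tested, with a median of 0.54 against 0.0038 over all 18289 genes tested. By the adjusted p none of the 8 passed, where 0.00547% of all genes (1 gene) did. At an unadjusted p under 0.05, 3 of the 8 were higher, C3, C4b and Serping1, where 4.58% of all genes tested were. In knockdown against control 7 of 8 differences were above 0 (51.8% of all genes) with a median of 0.43, none of the 8 had an unadjusted p under 0.05 in the higher direction, and 3.85% of all genes did. None passed by adjusted p, where 0.00547% did. In overexpression against knockdown 8 of 8 were above 0 (50.1% of all genes) with a median of 0.24. There C3 (log2 2.57 ± 0.81, unadjusted p = 0.00707) and Serping1 had an unadjusted p under 0.05, where 2.78% of all genes were higher by that rule, and none passed by adjusted p, where 0.00547% did. The C1q genes differed there by 0.10 to 0.15, C4b by 0.34 ± 0.55, C3ar1 by 0.13 ± 0.24 and C5ar1 by 0.43 ± 0.29 (SE), and without overexpression replicate 4 the values were -0.35 for C1qa, -0.23 for C1qb, -0.28 for C1qc, -0.35 for C4b and -0.10 for C3ar1. DESeq2 called 1 of the 8, Serping1, in overexpression against control. The comparisons of both Ttr vectors share the control libraries, so the common direction in them is not independent. Because the 8 genes were chosen with earlier results of these data known, the counts beside the shares of all genes are a description and no test.

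**Figure D3:**
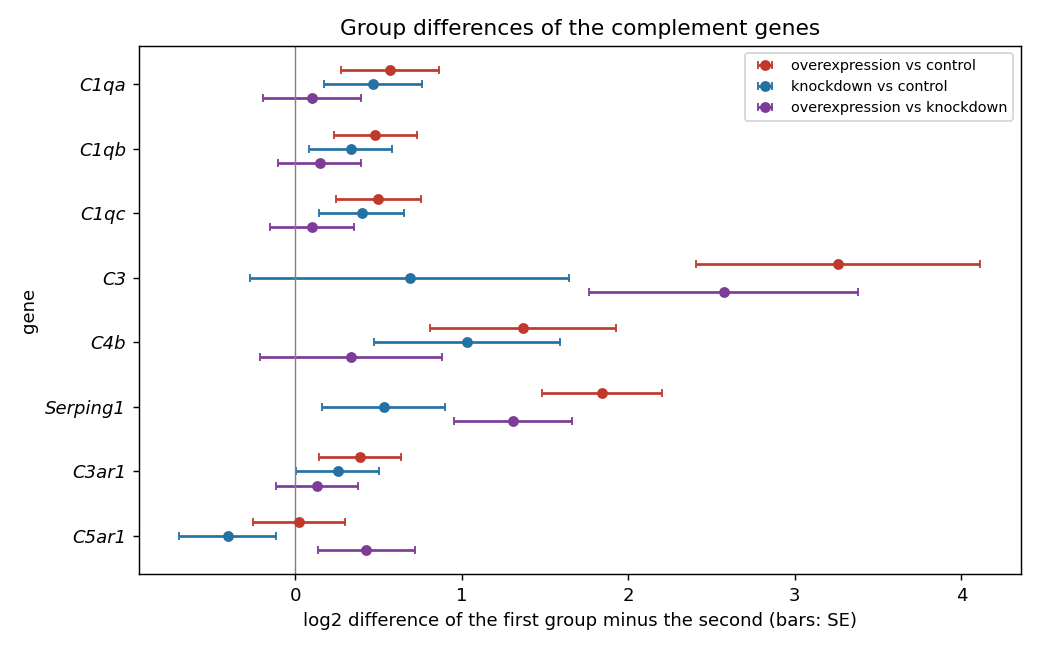
Fitted log2 differences of the 8 genes in 3 comparisons, each the first group minus the second, with bars of 1 SE. C3, Serping1 and C4b show the largest differences of overexpression from control (3.26, 1.84 and 1.37), and the bars of C1q and C4b for overexpression against knockdown cross 0.

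The 8 genes fell into patterns over the libraries. Among 28 pairs, 17 had an adjusted permutation p under 0.05 for Pearson's r and 9 for both r and Spearman's rho. The C1q chains were the most alike, with C1qa and C1qc at r = 0.998 and rho = 0.979 (permutation p = 1e-05 for each, the smallest that the resamples can give, and 9.33e-05 and 0.000140 adjusted over 28 pairs), and r = 0.986 without both Ttr replicates 4. C4b went with C1qa (r = 0.925, rho = 0.846, adjusted p = 0.000168 and 0.00428; r = 0.862 without those libraries) and with C3ar1 (r = 0.905, rho = 0.846, adjusted p = 0.000240 and 0.00428; r = 0.740 without them). C3 and C4b gave r = 0.800 and rho = 0.727 (adjusted p = 0.00333 and 0.0328; r = 0.670 without overexpression replicates 4 and 1). Serping1 and C1qa gave r = 0.534 and rho = 0.364 (adjusted p = 0.0904 and 0.313), and r = 0.175 without both Ttr replicates 4. C5ar1 passed with no other member. The relations of C1qa with C3ar1 (r = 0.866) and with C3 (r = 0.787) dropped to 0.452 and 0.506 without both Ttr replicates 4, so they rested on them. Their rho values were 0.573 and 0.629 (adjusted p for r 0.00333 and 0.0152, for rho 0.0982 and 0.0750).

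The genes most like each member over the 12 libraries, by Pearson r among 15882 genes with a mean of at least 1 CPM, also differed. C1qa was most like Trem2, a microglial receptor for lipids (r = 0.979), Psmb9, an immunoproteasome subunit (0.974), and Lag3, an immune checkpoint receptor (0.971). C1qb was most like Irf8, a transcription factor of microglia (0.978), Unc93b1, a chaperone of endosomal Toll-like receptors (0.977), and Pld4 (0.972). C1qc was most like Cyth4 (0.978), Lag3 (0.977) and Ly86 (0.976). C4b was most like its copy C4a (0.974), then Slc7a7, an amino acid transporter (0.970), and Samhd1, a nucleotide hydrolase that restricts viruses (0.966). Serping1 was most like Cp, which encodes ceruloplasmin, a copper-carrying ferroxidase (0.967), Slc12a7, a potassium-chloride cotransporter (0.965), and Lpp (0.964). C3 was most like H2-DMb1, a chaperone of class II loading that is part of the class II sum above, at r = 0.935 but rho = 0.678. Csf2rb (0.925) and Fhod1 (0.916) followed. C3ar1 was most like Plek (0.969), Cd180 (0.965) and the chemokine Cxcl10 (0.958). For C5ar1 no gene exceeded r = 0.818, that of the protease gene C1ra.

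The wider pathway list held 65 complement genes in 7 roles, of which 44 were tested. It was also chosen with earlier results of these data known, so its counts are a description. In overexpression against control 35 of 44 differences were above 0, as were 51.4% of those of all genes. Their median was 0.31, against 0.0038 over all genes. At an unadjusted p under 0.05, 11 were higher and 2 lower, where 4.58% of all genes were higher and 1.68% lower. None passed by adjusted p in the edgeR fit with its expression filter. Without the 8 members, 27 of 36 were above 0 with a median of 0.28, and 8 were higher and 2 lower by the unadjusted rule. Serping1 and Colec12 passed with DESeq2 and with edgeR without a filter on low counts. The convertase components, which form the enzymes that cleave C3, had 4 of 5 higher by the unadjusted rule: C2, C3, C4a and C4b. Of these, C3 and C4b are members, and reads may be split between C4a and C4b. The soluble regulators had 3 of 4 higher, and the first component with its proteases 1 of 7. The lectin pathway had 1 of 4, the receptors 1 of 10 and the terminal components, which form the membrane attack complex, 0 of 2. Among 12 membrane regulators, a list of genes that protect host cells and of their neuronal relatives, 1 was higher and 2 were lower, Csmd2 (-0.17, unadjusted p = 0.0230) and Sez6l (-0.14, unadjusted p = 0.0403). Without overexpression replicate 4 the median of the 44 was 0.14 with 11 higher, and without replicate 2 of that group 20 were higher. With the meningeal and mural sum as a covariate 0 of the 44 were higher. That sum differs between the groups, and no gene of any kind passed by adjusted p in that fit. For the fits with a library left out or a covariate the share of all genes is not given. Their counts thus cannot be read as particular to complement.

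Outside the 8 members, the complement gene with the smallest p in overexpression against control was Colec12, a scavenger receptor of the collectin family. It had 11.9, 12.7, 19.7 and 13.8 CPM in the overexpression group against 5.72, 6.88, 10.2 and 5.55 CPM in the controls, with no overlap, and a log2 difference of 1.02 ± 0.20 (SE; unadjusted p = 0.000213). Its adjusted p was 0.297 with edgeR's quasi-likelihood test, 0.0318 without a filter on low counts and 0.00157 with DESeq2. The regulator gene Vtn, which encodes vitronectin, had 57.5 to 75.9 CPM against 51.1 to 55.7 CPM (log2 0.29 ± 0.078, adjusted p = 0.567 in edgeR). The protease gene C1s1, a target of the C1 inhibitor, had 1.74 to 2.72 CPM against 1.04 to 1.56 CPM (0.87 ± 0.24, adjusted p = 0.567 in edgeR). These 3 genes had ranges apart, as had Serping1, where 1.88% of all genes tested did. Itgax, an integrin chain of complement receptor 4, had the third largest log2 difference of the list, 1.58 ± 0.79 (adjusted p = 0.821 in edgeR), from 2.13 ± 2.88 and 0.658 ± 0.271 CPM (SD, n = 4). Overlapping ranges were found for it, for C2, a convertase protease (1.28 ± 0.39, adjusted p = 0.626 in edgeR), and for Cd93, a receptor of endothelium and myeloid cells (0.44 ± 0.13, adjusted p = 0.611 in edgeR).

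In knockdown against control 30 of 44 differences of the list were above 0, where 51.8% of all genes were, with a median of 0.18. Without the 8 members it was 23 of 36, with a median of 0.078. In the full list 3 genes were higher at an unadjusted p under 0.05, where 3.85% of all genes were. They were Cd93 (0.30, unadjusted p = 0.0366), Cd59a (0.37, unadjusted p = 0.0392) and Vtn (0.18, unadjusted p = 0.0417). Vtn had a knockdown range apart from the controls, as 2.78% of all genes had. Outside the 8 members, the next smallest p-values were those of Colec12 (0.39, unadjusted p = 0.0772), Masp1 (-0.18, unadjusted p = 0.0931) and C4a (0.85, unadjusted p = 0.107). In overexpression against knockdown 34 of 44 were above 0, where 50.1% of all genes were, with a median of 0.14. Without the 8 members it was 26 of 36, with a median of 0.12. In the full list 8 were higher at an unadjusted p under 0.05, where 2.78% of all genes were. Outside the members, small p-values there were those of Colec12 (0.63, unadjusted p = 0.00761), C1s1 (0.67, unadjusted p = 0.0138) and Cd55 (0.31, unadjusted p = 0.0169), followed by C2 (1.01, unadjusted p = 0.0205) and C1ra (0.49, unadjusted p = 0.0408). None of the 44 passed by adjusted p in either comparison, by edgeR or by DESeq2.

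**Figure D4:**
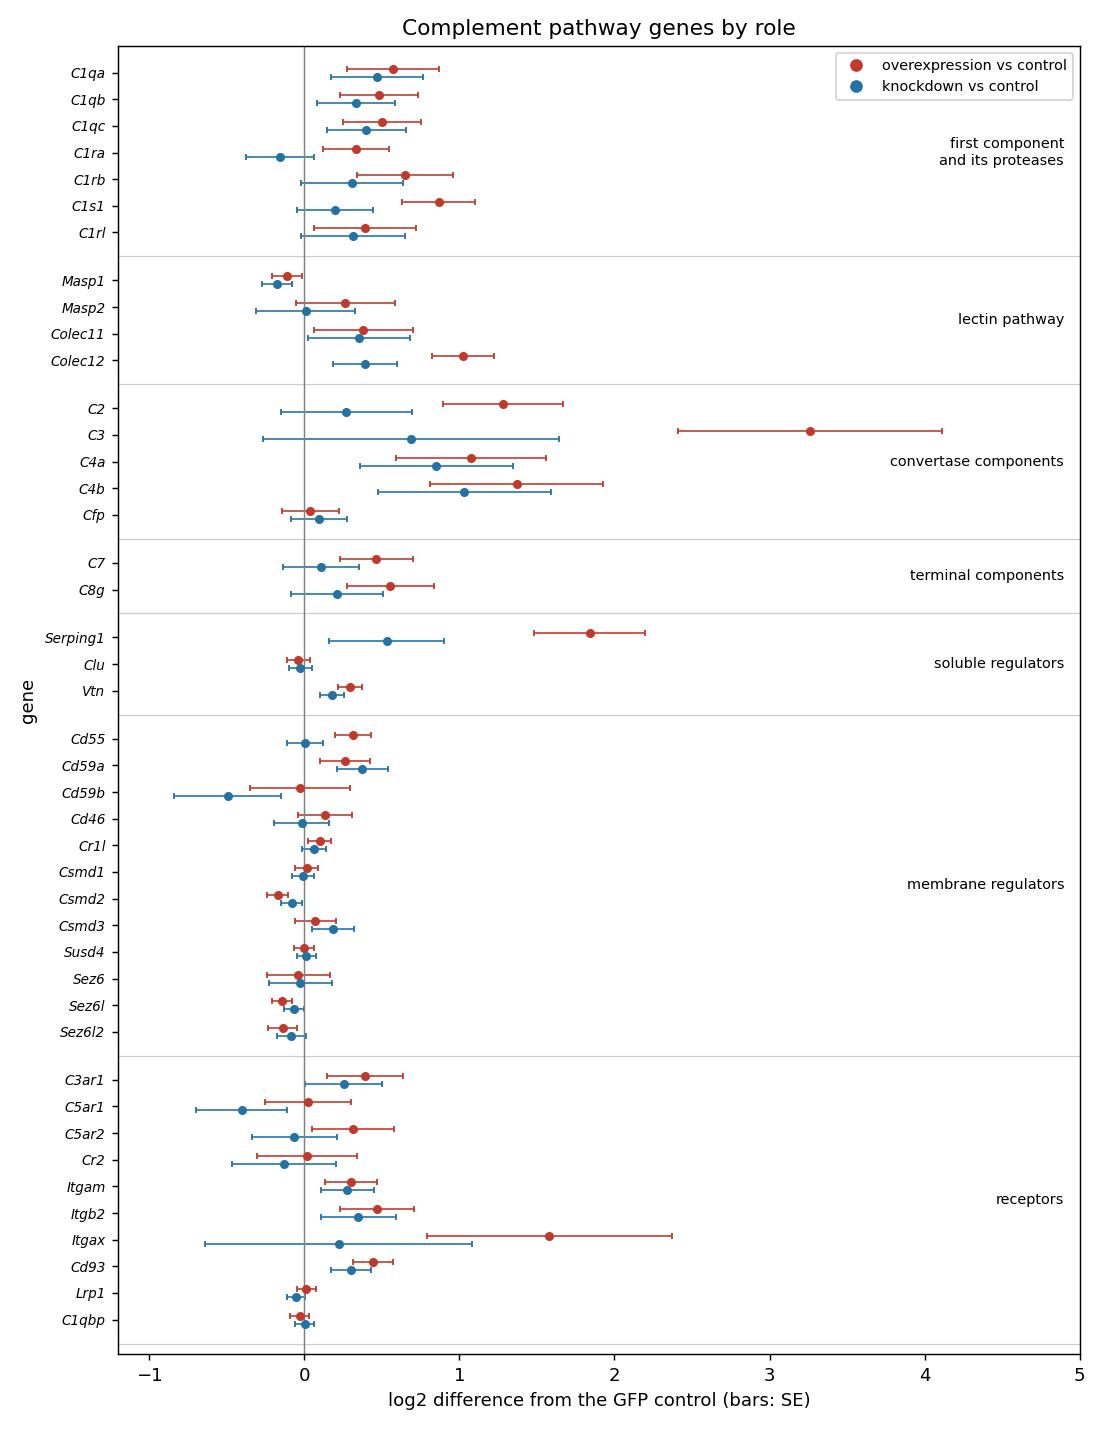
Fitted log2 differences from the GFP control of 43 of the 44 complement genes tested, grouped by role, for overexpression and knockdown, with bars of 1 SE. C3, Serping1 and Itgax lie farthest to the right for overexpression, while most membrane regulators lie near 0 in both comparisons.

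Of the 65 genes 21 were not tested, none of them with more than 11 counts in a library, and 5 had no count in any of the 12 libraries, among them Mbl1, Cfd, C9 and Cpn2. A count of 0 over the summed 324095686 counts allows a level of up to 0.00926 CPM (3 counts), a limit for counting error only. Cfb, the protease of the alternative pathway, had 5 counts in total, and Hc, the gene of C5, had 2 to 9 counts per library. The counts of Cfb and Hc were thus near the limit of detection in these libraries. Whether overlapping genes took reads from them was not tested.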

How the data were processed

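Prefrontal cortex of 12 samples, 3 groups of 4, was measured by poly(A) RNA sequencing. The authors deposited raw counts per gene, TPM values, and variance-stabilised values on a log2 scale whose transformation is not stated. All TPM values of 15172 genes (100%) lay within 0.01 log2 of the deposited counts divided by 1 length per gene and rescaled. Per the submitters' processing notes, bcl2fastq 2.20.0.422, UMI-tools, featureCounts, DESeq2 and GRCm38 (mm10) were named, with no role or order. The aligner, annotation release, strand setting and use of molecular identifiers were not given in the sources used here. Genes with no symbol held 0.00474% of all counts and stayed in library sizes.

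Counts were tested with edgeR 4.0.16 (quasi-likelihood, TMM factors 0.979 to 1.03, default expression filter by group) in R 4.3.3, with all 12 libraries in 1 fit of 3 group means. P-values were Benjamini-Hochberg adjusted over 18289 genes, with a threshold of 0.05. CPM used the TMM factors. Standard errors of log2 differences were derived from the F statistic, and the root common dispersion was 0.126. Correlations used log2 CPM (prior count 2) and 100000 two-sided permutations. The steps were tested on simulated counts. Coordinates are GENCODE's on GRCm38, and promoters are RefSeq's. Within groups no pair of libraries was alike within sampling noise (chi-square per degree of freedom 5.37 to 28.3 over 18 pairs).

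Members and lists were chosen with earlier results of these data known. The text names the 8 members, the 6 other complement genes with the smallest p-values in each comparison, and for likeness the 3 genes with the highest r. A gene that this rule named is not reported here. Genes outside that rule (Itgax, Csmd2, Sez6l and those with few or no counts) were named after their values were seen. Alternatives were other scalings and filters, DESeq2 1.42.0, limma-voom (limma 3.58.1), fits of 2 groups, the replicate number as a block, the deposited TPM (log2 of TPM + 0.1 or + 1) and variance-stabilised values, 2 marker sums as covariates and each library left out. Figures used Python 3.11.15 and matplotlib 3.10.9.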

Additional observations from a re-analysis of the deposited data

Results flagged for a closer look

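Of 24 groups of 4 values (8 genes in 3 groups), 3 held a library set apart from the other 3 by a gap that made up most of the range. For independent, normally distributed values chance gives this in about 1 in 20 groups. Several of the 8 genes went together over the libraries, so the 24 groups are not independent. C3 in control replicate 4 was 0.998 CPM, against 0.382 to 0.464 CPM in the other controls, and rests on 23 counts. C3 in overexpression replicate 4 was 16.5 CPM, against 0.428 to 3.05 CPM in its group. C4b in control replicate 2 was 47.0 CPM, against 30.0 to 32.8 CPM in the other controls.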

How the results depend on the processing

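Over 24 member results and 26 alternatives, 599 of 624 values kept their direction and their side of the threshold, 23 turned direction and 2 passed it (Serping1, overexpression against control). The cause of each change was not tested. Genes called in overexpression against control (1 in the reported fit) numbered 20 without a filter on low counts, 38 with DESeq2, 0 with limma-voom, with only the 2 groups or with the meningeal and mural covariate, and 0 to 4 with 1 library left out. Knockdown against control (1) gave 22 without a filter, 43 with DESeq2, 2 with only the 2 groups or with the microglia covariate, 0 with limma on log2(TPM + 0.1) or log2(TPM + 1) or with the meningeal covariate, 0 to 10 with 1 library left out and 17 without both replicates 4 of the Ttr vectors, an alternative chosen after seeing the data. Overexpression against knockdown (1) gave 11 with DESeq2, 0 with limma-voom, 2 with the microglia covariate, 0 to 2 with 1 library left out and 6 without both replicates 4. Complement genes called in overexpression against control (0) numbered 2 without a filter and 2 with DESeq2.

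With the replicate block the calls were 1, 0 and 2 in those 3 comparisons and no member passed. Same-numbered libraries had correlations of -0.341 to 0.160 over 12 pairs, with all genes centred on group means. Such values cannot tell whether these libraries share a batch or a day, which was not tested.

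With the microglia covariate, knockdown against control turned to -0.013 for C1qa, -0.057 for C1qb, -0.0033 for C1qc, -0.45 for C3, -0.036 for C4b and -0.13 for C3ar1. C5ar1 in overexpression against control turned to -0.15 with that covariate, -0.18 with the meningeal covariate and -0.14 without both replicates 4, and ran from -0.15 to 0.24 with 1 library left out. In overexpression against knockdown, leaving out 1 library gave -0.35 to 0.33 for C1qa, -0.23 to 0.32 for C1qb, -0.28 to 0.28 for C1qc, -0.35 to 0.86 for C4b and -0.10 to 0.35 for C3ar1. Without both replicates 4, C1qa was -0.11, C1qb -0.053 and C1qc -0.096, and with the meningeal covariate C4b was -0.082 and C3ar1 -0.14. Low counts limit C3 and C5ar1.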
